A study of Mus musculus with 18 samples.

Results

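The 10 mouse genes Gria1, Gria2, Gria3, Gria4, Grin1, Grin2a, Grin2b, Grin2c, Grin2d and Grin3a encode subunits of the AMPA and NMDA receptors for glutamate. They were taken by name from the 54446 genes of a count table, with earlier results of these data known. All 10 passed the filter on low counts that 20635 genes passed. The table holds total RNA of spinal cord from 18 untreated mice aged 10 months, 3 animals of each of 6 genotypes. The Q33 double knock-in (Q33;TDP-43 in the plots) was heterozygous for human ATXN2 with 33 glutamines and for human TDP-43, and the Q22 double knock-in (Q22;TDP-43) for human ATXN2 with 22 glutamines and for human TDP-43. The Q33, Q22 and TDP-43 groups were heterozygous for 1 of these human sequences, and the NTg group was non-transgenic C57BL/6. ATXN2 and TDP-43 are RNA-binding proteins linked to amyotrophic lateral sclerosis, in which motor neurons of the cord are lost. The labels name neither promoters nor founder lines of the knock-ins, and give neither sex nor litter.

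AMPA receptors carry most of the fast excitatory current of spinal synapses and are assembled from 4 subunits out of GluA1 to GluA4, which Gria1 to Gria4 encode. NMDA receptors need the GluN1 subunit of Grin1 together with GluN2 subunits from Grin2a to Grin2d or GluN3 subunits such as that of Grin3a. Those with GluN2 subunits open when glutamate and a co-agonist, glycine or D-serine, bind while the membrane is depolarized. In the cord, dorsal horn neurons receive sensory input and are known for GluA1 and GluA2, whereas motor neurons of the ventral horn are known for GluA3 and GluA4 and for their sensitivity to calcium entering through AMPA receptors that lack edited GluA2.

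That property lies in the pore loop, which is why its coding sequence is shown first. In the lines below, capitals mark the glutamine codon of the Q/R site of the AMPA subunits, which the deaminase ADAR2 edits in the RNA of Gria2. Each line gives 66 bases of the mm10 coding strand, 5′ to 3′, from transcripts of the GENCODE vM21 annotation.
Gria1: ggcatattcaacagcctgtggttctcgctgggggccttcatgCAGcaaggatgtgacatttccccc
Gria2: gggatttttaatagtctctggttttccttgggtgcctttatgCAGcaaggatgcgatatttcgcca
Gria3: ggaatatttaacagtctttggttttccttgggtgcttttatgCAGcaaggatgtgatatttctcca
Gria4: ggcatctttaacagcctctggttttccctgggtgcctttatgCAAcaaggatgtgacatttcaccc

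The stretch of Gria1 is chr11:57243052-57243117 on the plus strand (exon 11 of 16), that of Gria2 chr3:80706890-80706955 on the minus strand (exon 11 of 16) and that of Gria3 chrX:41610223-41610288 on the plus strand (exon 11 of 16). Gria4 has it at chr9:4464116-4464181 on the minus strand (exon 12 of 17). The AMPA stretches translate to the same residues in all 4 genes, yet their bases differ at between 7 (Gria2 and Gria3) and 15 (Gria1 and Gria2) of the 66 positions. Counts per gene carry no base calls, so RNA editing at the Q/R codon was not analysed here.

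Library totals ran from 16061359 to 30978678 counts with a median of 23807573.5, and the members had between 252 and 10790 counts in a library. Reads were counted on mouse genes alone, so the human sequences could not be checked. Levels are given as CPM after TMM scaling in edgeR, that is, as counts relative to a scaled library total. Per kilobase of summed exon length, and averaged over the 18 libraries, Gria4 stood highest at 35.3 CPM per kb, followed by Grin1 (25.8), Gria2 (23.6), Gria1 (18.97) and Gria3 (18.1). The GluN2 and GluN3 genes were lower on this scale: Grin2a 8.35, Grin2b 8.04, Grin3a 5.27, Grin2c 3.12 and Grin2d 2.99 CPM per kb. Markers of cerebellum and forebrain, 12 genes together, summed to between 20.5 and 32.1 CPM in every library, against at least 8333 CPM for the 15 pan-neuronal markers.

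Several library properties moved with the genotype, and their part in the results was not tested beyond the fits named below. Mitochondrial ribosomal RNA made up 28.7, 26.3 and 23.4% of each Q33 double knock-in library, and between 12.7 and 23.4% of the other 15 libraries, of which Q33 replicate 2 was the highest. The mean log2 CPM of 6 caudal Hox genes, which mark lumbar and sacral cord, was 1.21, 3.54 and 0.55 in the Q33 double knock-in and -0.78, -1.97 and -1.52 in NTg. It was also high in Q33 replicates 2 and 3 (2.71 and 1.95) and in Q22 double knock-in replicate 1 (3.51). Y-linked reads above 10 CPM were found in 1 of 3 libraries of each double knock-in, 2 of 3 of Q33, 3 of 3 of Q22, 2 of 3 of TDP-43 and 0 of 3 of NTg, so sex was not balanced.

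The AMPA subunit genes split in the Q33 double knock-in, with Gria1 and Gria2 lower and Gria3 and Gria4 higher than in NTg. Of the NMDA subunit genes, Grin2b and Grin3a were lower, and Grin1, Grin2a, Grin2c and Grin2d did not pass the test. In all, 6 of the 10 genes passed edgeR's quasi-likelihood test at an adjusted p under 0.05, 2 higher and 4 lower, where 12.1% of all genes tested passed (5.68% higher and 6.39% lower). With no overlap between libraries, 3 members were above and 4 below NTg, against 30.2% of all genes in either direction. The median log2 fold change of the 10 was -0.12, against -0.01 over all genes tested.

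**Figure D1:**
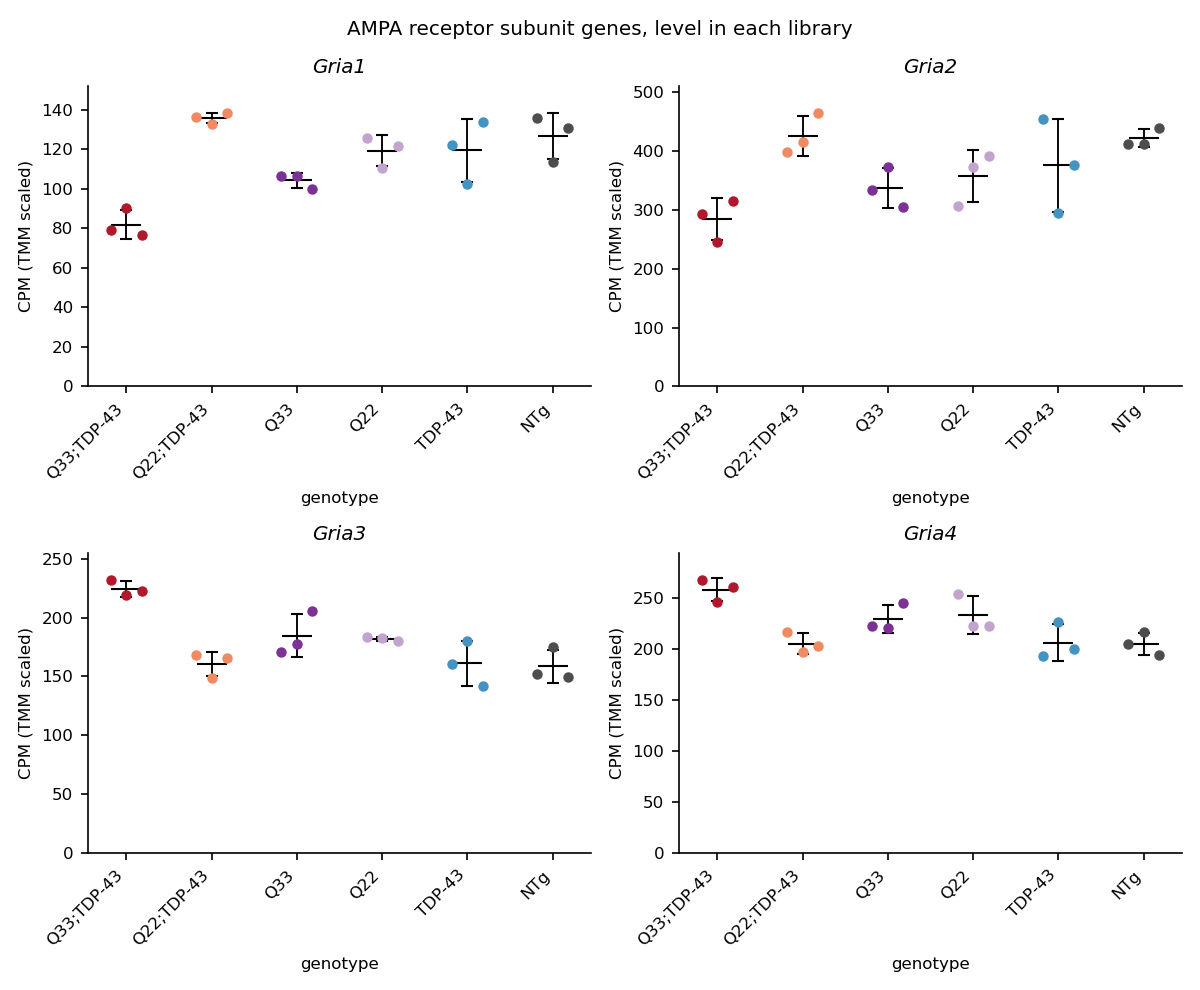
CPM (TMM scaled, from 0) of the 4 AMPA receptor subunit genes in each of 18 libraries by genotype, with points for animals and bars for mean ± SD of 3. The Q33 double knock-in lies below NTg for Gria1 and Gria2 and above it for Gria3 and Gria4 with no overlap, for example 76.5 to 90.2 against 114 to 136 CPM for Gria1.

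Gria1 encodes GluA1, whose delivery to synapses is a known step of dorsal horn plasticity (ENSMUSG00000020524.16, chr11:57011387-57330244 of mm10). It had 79.1, 90.2 and 76.5 CPM in the Q33 double knock-in, 136, 133 and 138 CPM in the Q22 double knock-in, and 136, 114 and 131 CPM in NTg. All 3 Q33 double knock-in animals were below every other library, and the Q22 double knock-in overlapped NTg. The other groups ran from 99.8 to 107 CPM in Q33, 111 to 126 in Q22 and 102 to 134 in TDP-43. Q33, the next group up in the order of means, overlapped neither the Q33 double knock-in nor Q22. Q22, TDP-43, NTg and the Q22 double knock-in followed, and each of these neighbours overlapped. Set against NTg, the Q33 double knock-in had a log2 fold change of -0.63 (SE 0.10, edgeR adjusted p = 0.00087).

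Gria2, which encodes the GluA2 subunit that keeps calcium out once edited (ENSMUSG00000033981.14, chr3:80681450-80802835), had 294, 246 and 316 CPM in the Q33 double knock-in. It had 398, 416 and 464 CPM in the Q22 double knock-in and 413, 413 and 440 CPM in NTg. All 3 libraries of the Q33 double knock-in were below those of both groups, but their highest overlapped Q33 (306 to 373 CPM), Q22 (307 to 392 CPM) and TDP-43 (295 to 455 CPM). The TDP-43 animals spread more widely than the means of the 6 genotypes. Against NTg the log2 fold change was -0.57 in the Q33 double knock-in (SE 0.14, edgeR adjusted p = 0.013).

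Gria3 lies on the X chromosome and encodes GluA3 (ENSMUSG00000001986.16, chrX:41400854-41678601). Its levels were 232, 219 and 223 CPM in the Q33 double knock-in, 168, 149 and 165 CPM in the Q22 double knock-in, and 152, 175 and 149 CPM in NTg. Every library of the Q33 double knock-in was above the 15 others, of which the highest was a Q33 library at 206 CPM. Q33 (170 to 206 CPM) and Q22 (180 to 184 CPM) had means between those of the Q33 double knock-in and the other 3 groups and overlapped each other. Q33 also overlapped NTg, and TDP-43 ran from 142 to 180 CPM. Relative to NTg, the Q33 double knock-in had a log2 fold change of 0.50 (SE 0.09, edgeR adjusted p = 0.0038), and 0.49 with the Y-linked level as a covariate (adjusted p = 0.0075).

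Gria4, the gene of the fast-gating GluA4 (ENSMUSG00000025892.16, chr9:4417896-4796234), had 268, 246 and 261 CPM in the Q33 double knock-in, against 205, 216 and 194 CPM in NTg. The Q22 double knock-in had 217, 197 and 202 CPM. Libraries of the Q33 double knock-in overlapped neither group, and Q22 (222 to 254 CPM) and Q33 (220 to 245 CPM) stood between it and NTg, Q22 overlapping the Q33 double knock-in. TDP-43 (193 to 226 CPM) overlapped NTg. Relative to NTg the difference was a log2 fold change of 0.33 in the Q33 double knock-in (SE 0.08, edgeR adjusted p = 0.017). Under library totals, with no composition factor, the median of all genes moved to -0.25, and the values were 0.09 for Gria4 (adjusted p = 0.46) and 0.26 for Gria3 (adjusted p = 0.052), so neither was called.

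**Figure D2:**
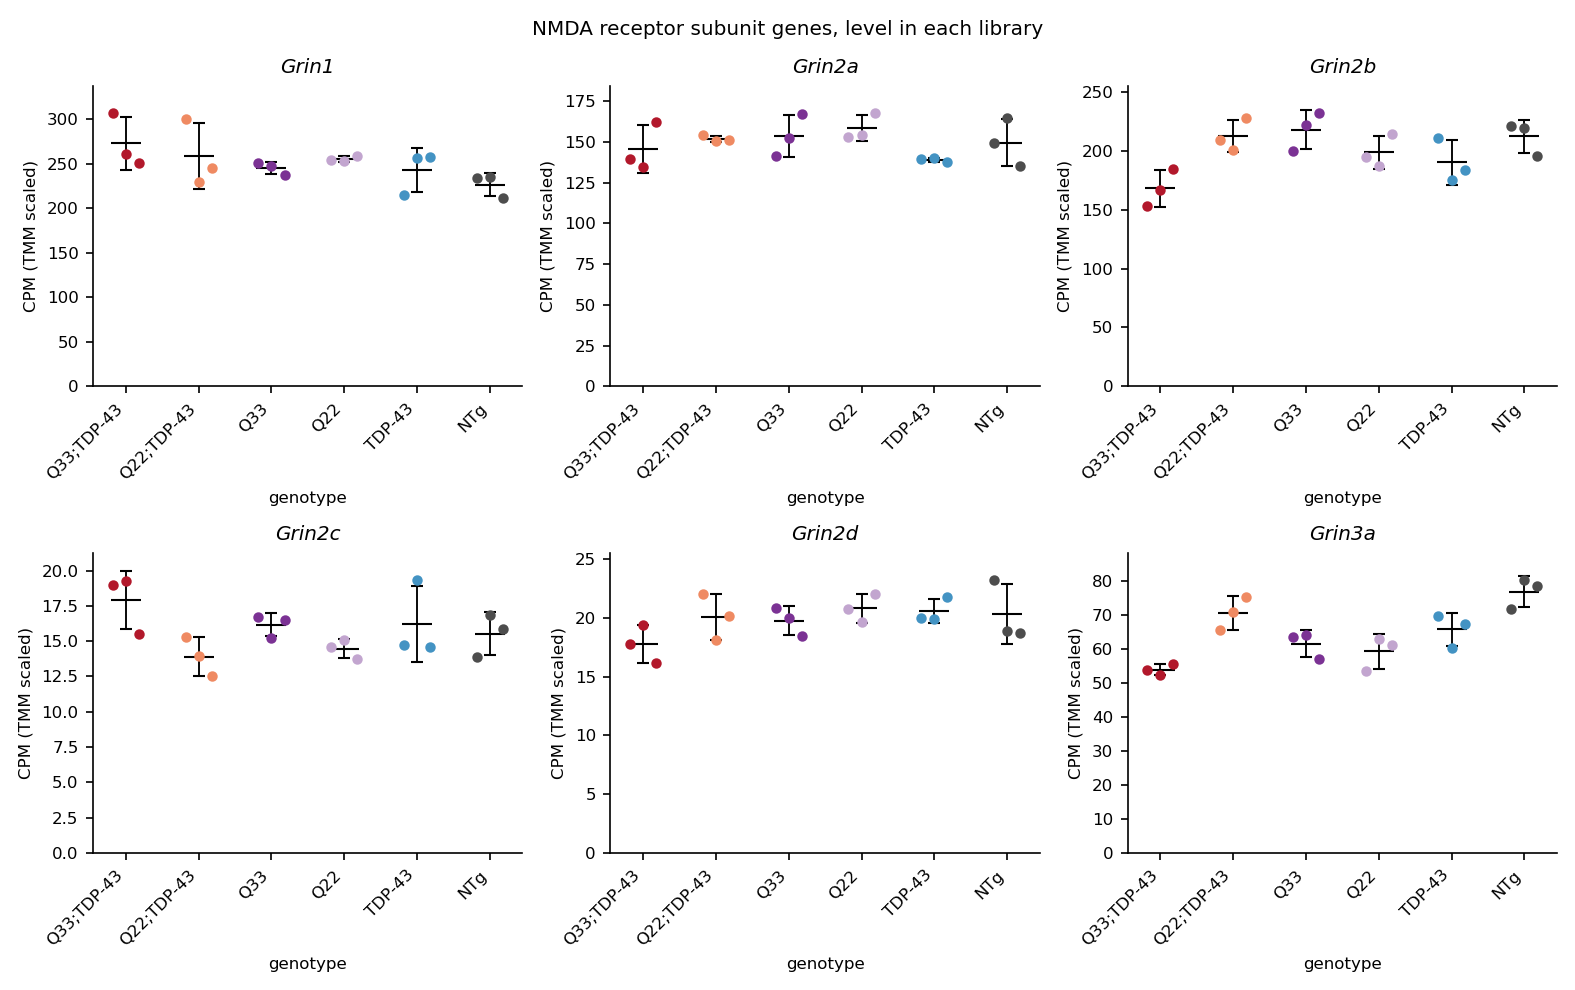
CPM (TMM scaled, from 0) of the 6 NMDA receptor subunit genes in each of 18 libraries by genotype, with points for animals and bars for mean ± SD of 3. Grin2b and Grin3a are lower in the Q33 double knock-in than in NTg with no overlap, while Grin2a stays between 135 and 168 CPM in all libraries.

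Grin1, the obligatory GluN1 subunit (ENSMUSG00000026959.13, chr2:25291181-25319187), had 307, 262 and 251 CPM in the Q33 double knock-in, 301, 229 and 246 CPM in the Q22 double knock-in, and 234, 235 and 211 CPM in NTg. Although the Q33 double knock-in did not overlap NTg, its log2 fold change of 0.27 (SE 0.10, 95% interval 0.05 to 0.49) missed the threshold with an edgeR adjusted p of 0.093. Q22 (253 to 259 CPM), Q33 (238 to 251 CPM) and TDP-43 (215 to 258 CPM) had means between those of NTg and the Q33 double knock-in. Q22, TDP-43 and the Q22 double knock-in overlapped the Q33 double knock-in. The highest Q33 library was level with its lowest at 251 CPM. Exons of Grin1 share 1307 of 9700 bases with Grin1os on the other strand, which the stranded counting is stated to keep apart.

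Grin2a and Grin2b encode GluN2A and GluN2B, the GluN2 subunits of most adult receptors, of which GluN2B closes more slowly. Grin2b (ENSMUSG00000030209.14, chr6:135713233-136173511) had 153, 166 and 184 CPM in the Q33 double knock-in, 209, 201 and 228 CPM in the Q22 double knock-in, and 221, 220 and 196 CPM in NTg. The Q33 double knock-in was below both groups and below Q33 (199 to 232 CPM) and Q22 (187 to 214 CPM), but overlapped TDP-43 (175 to 211 CPM). Its log2 fold change against NTg was -0.34 (SE 0.10, edgeR adjusted p = 0.029). Grin2a (ENSMUSG00000059003.12, chr16:9567898-9995560) had 140, 135 and 162 CPM in the Q33 double knock-in, against 149, 164 and 135 CPM in NTg. These groups overlapped, and the log2 fold change was -0.04 (SE 0.09, 95% interval -0.23 to 0.15, edgeR adjusted p = 0.82).

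Grin2c and Grin2d, which encode subunits with a weaker magnesium block, were the least abundant. Grin2c (ENSMUSG00000020734.13, chr11:115249169-115267243) had 18.99, 19.3 and 15.5 CPM in the Q33 double knock-in, 15.3, 13.9 and 12.5 CPM in the Q22 double knock-in, and 13.9, 16.9 and 15.9 CPM in NTg. Its log2 fold change against NTg was 0.21 (SE 0.13, 95% interval -0.07 to 0.49, edgeR adjusted p = 0.30) and turned to -0.03 under library totals and -0.07 with the mitochondrial rRNA percent as a covariate. Grin2d (ENSMUSG00000002771.12, chr7:45831883-45878378) had 17.8, 19.4 and 16.2 CPM in the Q33 double knock-in and 23.3, 18.9 and 18.7 CPM in NTg. That difference was -0.19 on the log2 scale (SE 0.11, 95% interval -0.43 to 0.05, edgeR adjusted p = 0.27), and -0.44 under library totals, where it was called (adjusted p = 0.018). In that setting the median of all genes was -0.25, and 3940 of 20635 genes were called lower. At 252 to 606 counts a library, Grin2c and Grin2d were measured with more counting error than the others.

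Grin3a encodes GluN3A, a glycine-binding subunit that lowers the calcium permeability of NMDA receptors (ENSMUSG00000039579.15, chr4:49661611-49845744). It had 53.7, 52.3 and 55.6 CPM in the Q33 double knock-in, 65.5, 71.0 and 75.3 CPM in the Q22 double knock-in, and 71.6, 80.3 and 78.6 CPM in NTg. NTg was the highest group and the Q33 double knock-in the lowest, and the single knock-ins lay between, with 56.9 to 64.1 CPM in Q33, 53.5 to 63.0 in Q22 and 60.3 to 69.7 in TDP-43. Every neighbouring pair in the order of means overlapped, Q22 and the Q33 double knock-in included. The Q33 double knock-in and NTg did not overlap, and their log2 fold change was -0.51 (SE 0.09, edgeR adjusted p = 0.0017).

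Because the cords are bulk tissue, fewer cells of a type and less RNA per cell cannot be told apart in any of these values. Markers of cell types moved in the same comparison, where 5.68% of all genes tested were called higher and 6.39% lower. Of 13 dorsal horn and excitatory interneuron markers tested, 11 were lower and 0 higher in the Q33 double knock-in than in NTg, with a median log2 fold change of -1.81. The 14 listed genes summed to 108, 119 and 150 CPM in the Q33 double knock-in and 309, 271 and 337 CPM in NTg, and to between 197 and 322 CPM in the other groups. Of 16 motor neuron markers 4 were higher and 0 lower (median 0.67), and they summed to 690, 986 and 618 CPM in the Q33 double knock-in and 409, 603 and 413 CPM in NTg. In Q33 they summed to 604, 563 and 848 CPM, with a median of 0.70 against NTg. By edgeR 0 were called in Q33, and 6 had an unadjusted p under 0.05, the same number as in the Q33 double knock-in. Libraries of Q22, TDP-43 and the Q22 double knock-in ran from 331 to 637 CPM. Set against NTg, the Q33 double knock-in had 7 of 15 pan-neuronal markers higher and 1 lower (median 0.52). Of 12 inhibitory neuron markers 2 were higher and 3 lower (median -0.25). With 1 library left out, 9 to 10 dorsal horn markers were lower, and 2 to 6 motor neuron markers were higher, with the 2 seen without NTg replicate 3 or Q33 double knock-in replicate 1. The motor neuron median then ran from 0.14, without Q33 double knock-in replicate 2, to 0.91. Without its replicate 1, 3 pan-neuronal and 0 inhibitory markers were higher, and without NTg replicate 3, 1 inhibitory marker was. Their part in the receptor gene values was not tested.

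Among non-neuronal markers, those of astrocytes had 1 of 12 higher and 3 lower (median -0.04), oligodendrocyte precursor markers 0 higher and 4 of 12 lower (median -0.26), myelin markers 0 higher and 2 of 12 lower (median -0.29) and microglia markers 0 higher and 3 of 12 lower (median -0.40). Endothelial and mural cell markers had 3 of 10 higher and 0 lower (median 0.62). Of all genes tested, 5.68% were higher and 6.39% lower. With 1 library left out, the lower counts ran from 1 to 3 for astrocyte, 1 to 5 for oligodendrocyte precursor, 0 to 3 for myelin and 0 to 3 for microglia markers, and the higher counts from 0 to 3 for astrocyte and 2 to 4 for endothelial markers. Without Q33 double knock-in replicate 1 the first 4 of these lists had 1, 1, 0 and 0 lower. The myelin count was also 0 without NTg replicate 2 or 3, and the microglia count 1 without NTg replicate 3 or Q33 double knock-in replicate 2. Dorsal root ganglion markers, of which 3 of 8 passed the filter, summed to 3.36 to 4.95 CPM in the Q33 double knock-in and 3.11 to 4.28 CPM in NTg, and 0 were called by edgeR (0 at an unadjusted p under 0.05). Cerebellum and forebrain markers, of which 7 of 12 passed the filter, had 0 called by edgeR (2 at an unadjusted p under 0.05). The parts of these cell types in the receptor gene values were not tested.

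**Figure D3:**
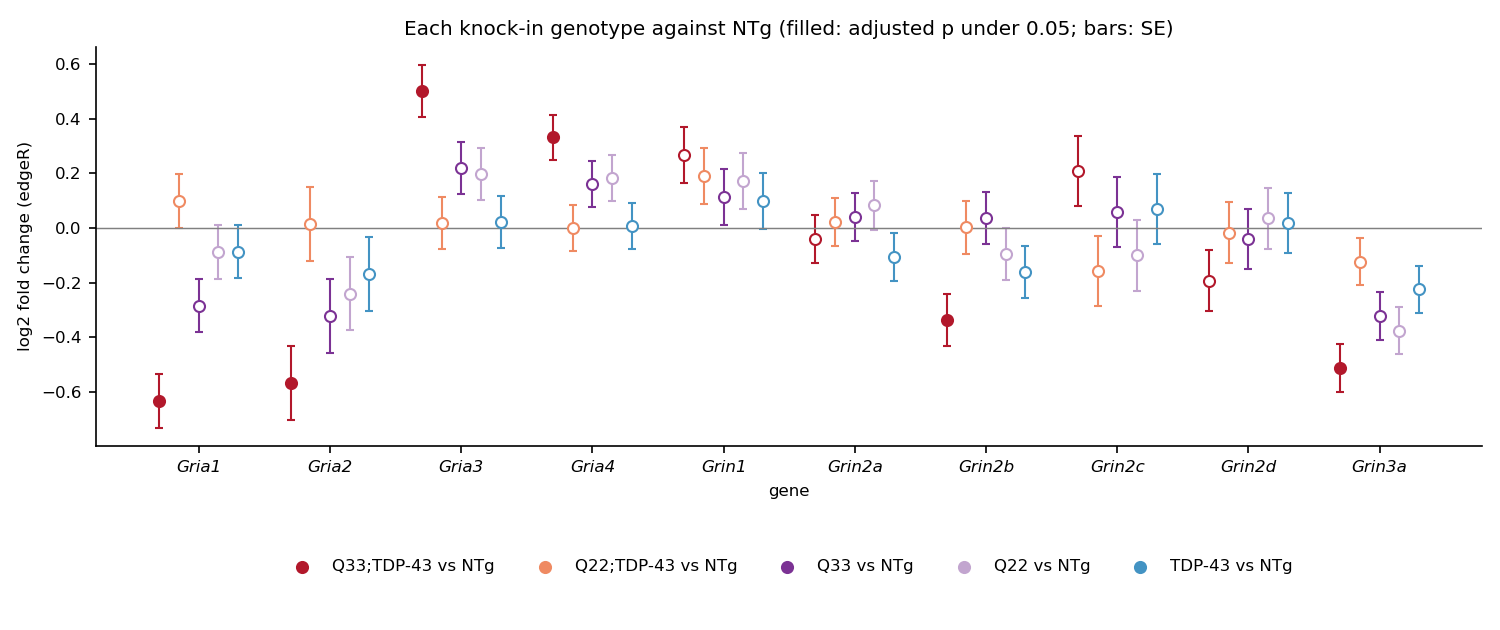
Log2 fold change (edgeR, bars SE) of the 10 genes in each knock-in genotype against NTg, with filled points for an adjusted p under 0.05. Only points of the Q33 double knock-in are filled, for Gria1, Gria2, Gria3, Gria4, Grin2b and Grin3a, and all 5 comparisons share the same 3 NTg libraries.

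Each other genotype was compared with NTg to ask what 1 human sequence, or the shorter tract with TDP-43, did to the same genes. None of the 10 genes passed edgeR's test in any of these 4 comparisons, and DESeq2 called 0 as well. Over all genes edgeR called 0.00969% for the shorter double, Q22 with TDP-43, and 0% for each single knock-in. DESeq2 called 2 of 20635 genes for that double, 2 for Q33, 1 for Q22 and 6 for TDP-43. An unadjusted p under 0.05 was reached by 0 members for the Q22 double knock-in, 4 in Q33, 2 in Q22 and 1 in TDP-43, where 2.3, 7.28, 4.23 and 4.23% of all genes reached it. The largest differences in Q33 were log2 fold changes of -0.32 for Grin3a (SE 0.09), -0.32 for Gria2 (SE 0.13) and -0.28 for Gria1 (SE 0.10), with edgeR adjusted p = 0.66 for each. In Q33, 2 members were above and 3 below NTg with no overlap, against 15.5% of all genes in either direction, and in Q22, 3 were above and 2 below, against 10.6%. Grin3a had the smallest unadjusted p of the members in Q22, with a log2 fold change of -0.37 (SE 0.09, unadjusted p = 0.00042, edgeR adjusted p = 0.91). Among the groups without the longer double, the Q22 double knock-in was also compared with TDP-43 and with Q22, and Q33 with Q22. These 3 comparisons called 0 members by edgeR or DESeq2. Over all genes edgeR called 0% in each, and DESeq2 called 1 of 20635 for Q33 against Q22 and 0 for the others. Of the members 0, 2 and 0 had an unadjusted p under 0.05, where 2.41, 4.12 and 2.14% of all genes did. For the Q22 double knock-in against NTg the 95% intervals of the 10 log2 fold changes lay between -0.44 and 0.41.

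The double knock-ins, which differ by the glutamine tract, were compared with each other. With Q33, 2 of the 10 members were higher and 4 lower by edgeR's test than with Q22, where 12.8% of all genes passed (6.67% higher and 6.17% lower). Gria1 had a log2 fold change of -0.73 (SE 0.10, edgeR adjusted p = 0.00024), Gria2 of -0.58 (SE 0.14, 0.011), Grin3a of -0.39 (SE 0.09, 0.0083) and Grin2b of -0.34 (SE 0.10, 0.026). Gria3 was higher by 0.48 (SE 0.09, edgeR adjusted p = 0.0039) and Gria4 by 0.33 (SE 0.08, 0.016). Grin2c, higher with no overlap, missed the threshold at 0.37 (SE 0.13, edgeR adjusted p = 0.067), and was called without Q33 double knock-in replicate 3 (0.031). The comparison shares its 3 Q33 double knock-in libraries with the one against NTg. Without Q22 double knock-in replicate 3, 2 of the 10 were called, with adjusted p of 0.075 for Gria2, 0.074 for Gria4, 0.15 for Grin2b and 0.066 for Grin3a. Gria4 also lost its call without Q22 double knock-in replicate 2 or Q33 double knock-in replicate 1 (0.067 and 0.079), and Grin2b without Q33 double knock-in replicate 1 or 2 (0.15 and 0.067). Under library totals Gria3 (0.065) and Gria4 (0.43) were not called, with only these groups fitted Gria4 (0.061) and Grin2b (0.069) were not, and with the mitochondrial rRNA covariate no member was, the smallest adjusted p being 0.060 for Gria1. The caudal Hox level overlapped between these groups only through Q22 double knock-in replicate 1 at 3.51. Replicates 2 and 3 of that group were at -2.07 and -1.80, below the Q33 double knock-in (0.55 to 3.54). The dorsal horn markers had 11 of 13 lower and 0 higher here too (median -1.88).

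Against TDP-43 alone, 4 members passed in the Q33 double knock-in, 2 higher and 2 lower, where 12.6% of all genes did (5.98% higher and 6.66% lower). Gria1 was at a log2 fold change of -0.54 (SE 0.10, edgeR adjusted p = 0.0031), Gria3 at 0.48 (SE 0.09, 0.0049), Gria4 at 0.32 (SE 0.08, 0.019) and Grin3a at -0.29 (SE 0.09, 0.037), whereas Gria2 missed the threshold at -0.40 (SE 0.13, 0.060). Gria4 and Grin3a lost their calls without TDP-43 replicate 1 (0.067 and 0.18), TDP-43 replicate 3 (0.069 and 0.16) or Q33 double knock-in replicate 1 (0.098 and 0.13), and Grin3a without Q33 double knock-in replicate 2 (0.10). Grin3a was also lost without a filter on low counts (0.14) and with the Y-linked level as a covariate (0.060), Gria3 and Gria4 under library totals (0.057 and 0.42), all but Gria1 with the caudal Hox covariate, and all 4 with the mitochondrial rRNA covariate or with only these groups fitted. Against Q33 alone, 0 members passed edgeR's test and 4 had an unadjusted p under 0.05, where 0.892 and 17.7% of all genes did. DESeq2 called 1033 of all 20635 genes and 2 members, Grin2b and Gria1, whose edgeR log2 fold changes were -0.37 (SE 0.10, adjusted p = 0.061) and -0.35 (SE 0.10, adjusted p = 0.080). Without Q33 double knock-in replicate 3 edgeR called Grin2b (adjusted p = 0.040).

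Whether the effects of the human sequences add up was asked with contrasts of differences in the same edgeR fit. The interaction of Q33 with TDP-43 called 0 members and 0% of all genes by edgeR, with 0 members at an unadjusted p under 0.05 (13% of all genes). DESeq2 called 118 of 20635 genes and 0 members. Its values were -0.26 for Gria1 (SE 0.14, edgeR adjusted p = 0.44) and 0.26 for Gria3 (SE 0.13, 0.42). The interaction of Q22 with TDP-43 called 0 members by either tool, and 0% of all genes by edgeR and 2 genes by DESeq2, and 2 members had an unadjusted p under 0.05 (4.01% of all genes), Grin3a at 0.48 (SE 0.12, edgeR adjusted p = 0.94) and Gria2 at 0.42 (SE 0.19, 0.94). The Q33 against Q22 difference with TDP-43, less that without TDP-43, called 0 members by edgeR, 6 at an unadjusted p under 0.05 (15.2% of all genes) and 4 by DESeq2, where edgeR called 0.344% of all genes and DESeq2 594 of 20635. It was -0.53 for Gria1 (SE 0.14, edgeR adjusted p = 0.093), -0.50 for Gria2 (SE 0.19, 0.22), 0.46 for Gria3 (SE 0.13, 0.12) and 0.35 for Gria4 (SE 0.12, 0.17). Over all 6 genotypes in 1 test, Gria1 (edgeR adjusted p = 0.0045), Grin3a (0.017) and Gria3 (0.017) passed, 3 of 10 where 4.16% of all genes did. Without Q33 double knock-in replicate 1 that test called 0, with 0.053 for Gria1, without its replicate 2 it called 1, and without TDP-43 replicate 2 it called 5.

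Composition within a family does not depend on the scaling between libraries. Gria1 made up 13.4, 16.2 and 13.1% of the summed CPM per kb of Gria1 to Gria4 in the Q33 double knock-in and 23.2, 19.3 and 22.6% in NTg. Gria2 made up 19.3, 17.2 and 20.96% in the Q33 double knock-in and 27.4, 27.3 and 29.5% in NTg. Both shares were lower in every library of the Q33 double knock-in than in any of NTg. The difference in Gria1 was -7.48 points, and -4.22 when CPM were not divided by length. Gria3 made up 23.8% ± 0.465 in the Q33 double knock-in and 16.6% ± 1.38 in NTg (SD, n = 3 each), and Gria4 42.8% ± 0.494 in the Q33 double knock-in and 33.6% ± 1.54 in NTg, both with no overlap. Gria1 and Gria2 together with Gria3 and Gria4 add to the whole, so these shares cannot move independently. The exact permutation test gave a two-sided p of 0.1 for each, the smallest that 3 against 3 allow.

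**Figure D4:**
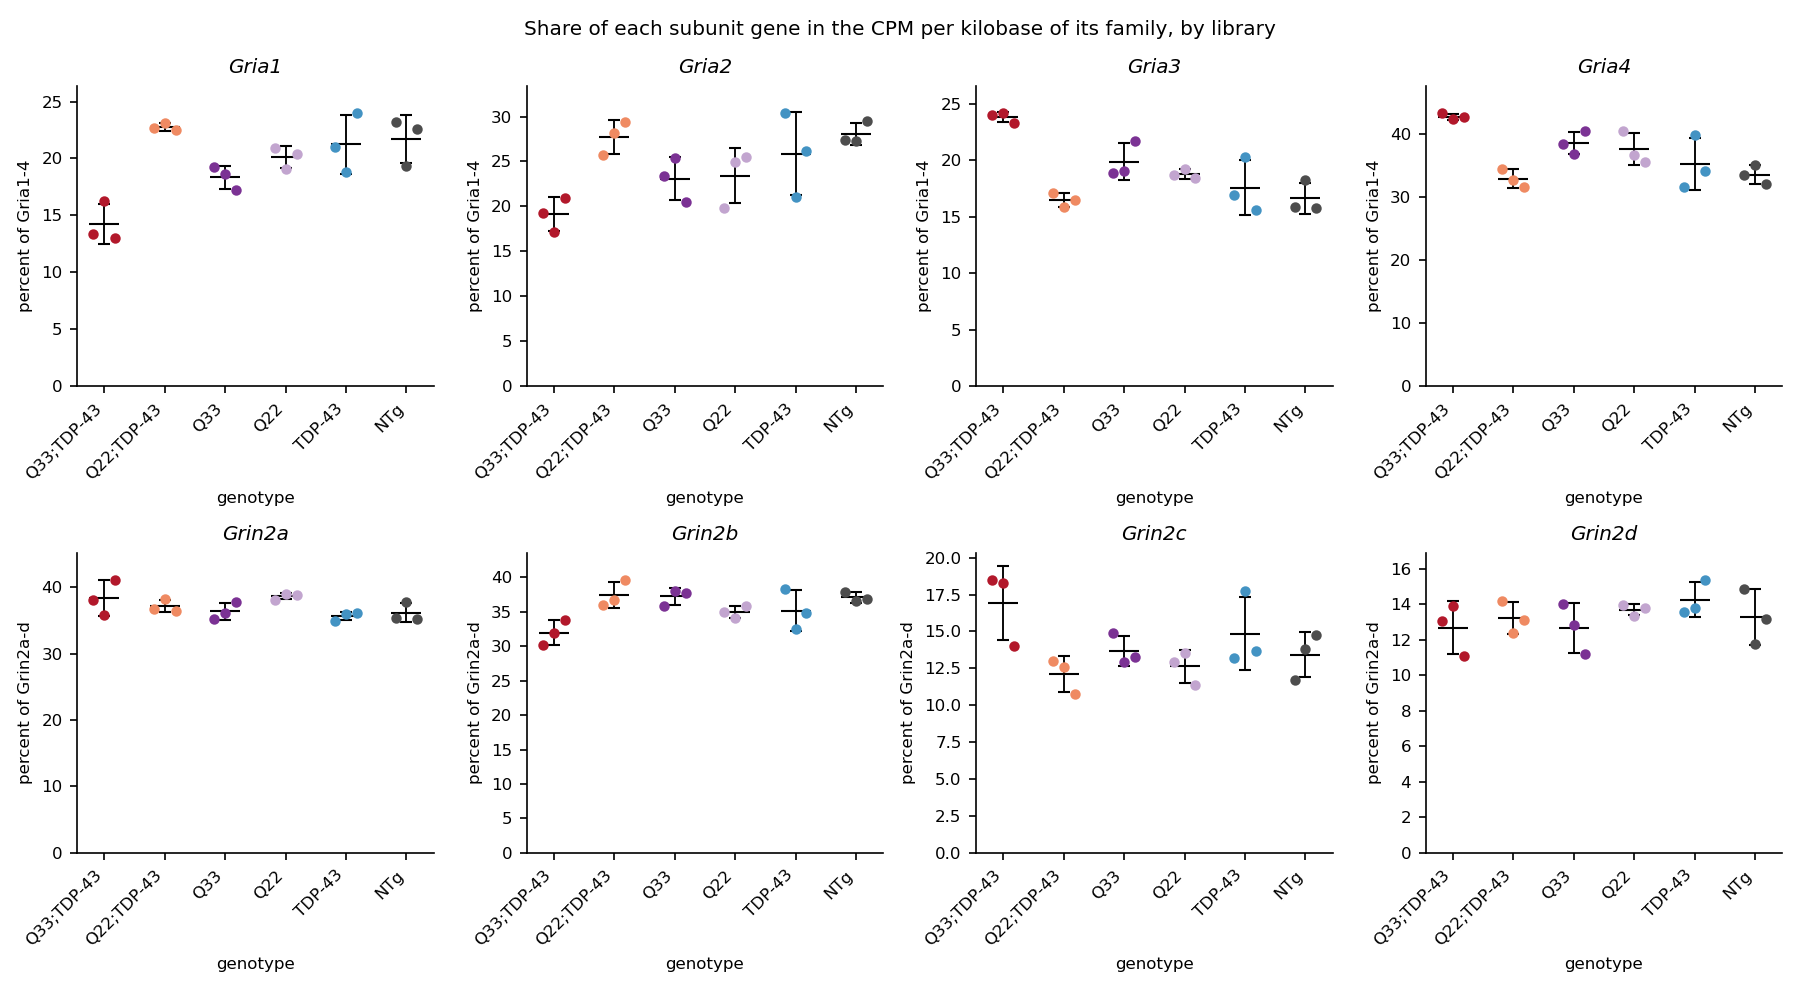
Percent of the summed CPM per kb of Gria1 to Gria4, or of Grin2a to Grin2d, that each gene made up in each library by genotype, with bars for mean ± SD of 3. The Q33 double knock-in has lower shares of Gria1, Gria2 and Grin2b and higher shares of Gria3 and Gria4 than NTg, and the Q22 double knock-in overlaps NTg for all 8 genes.

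In the Q22 double knock-in the AMPA shares averaged 22.8% for Gria1, 27.7% for Gria2, 16.5% for Gria3 and 32.98% for Gria4, each within 1.07 points of NTg. Single knock-ins of either ATXN2 form also differed from NTg with no overlap in 3 or more of the 4 shares. Gria4 made up 38.6% ± 1.78 in Q33 and 37.6% ± 2.55 in Q22, against 33.6% ± 1.54 in NTg, and Gria2 23.1% ± 2.44 in Q33 and 23.4% ± 3.10 in Q22, against 28.04% ± 1.25 in NTg (SD, n = 3 each; exact permutation p = 0.1 for each). Among the GluN2 genes, Grin2b made up 30.2, 32.0 and 33.8% in the Q33 double knock-in and 38.0, 36.5 and 36.8% in NTg, lower in every library. The single Q22 knock-in also had a lower mean share of Grin2b (34.99%, against 37.1% in NTg) and a higher one of Grin2a (38.7%, against 36.2%). Neither overlapped NTg (exact permutation p = 0.1 for each). Grin2a averaged 38.4% in the Q33 double knock-in and 36.2% in NTg, Grin2c 16.9% in the Q33 double knock-in and 13.4% in NTg, and Grin2d 12.7% in the Q33 double knock-in and 13.3% in NTg, and these 3 overlapped. Without division by length the difference in Grin2c was 1.26 points in place of 3.49, and that in Grin2d, -0.58 points, was 0.01. With 1 library left out the Grin2d difference ran from -1.33 to 0.24.

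**Figure D5:**
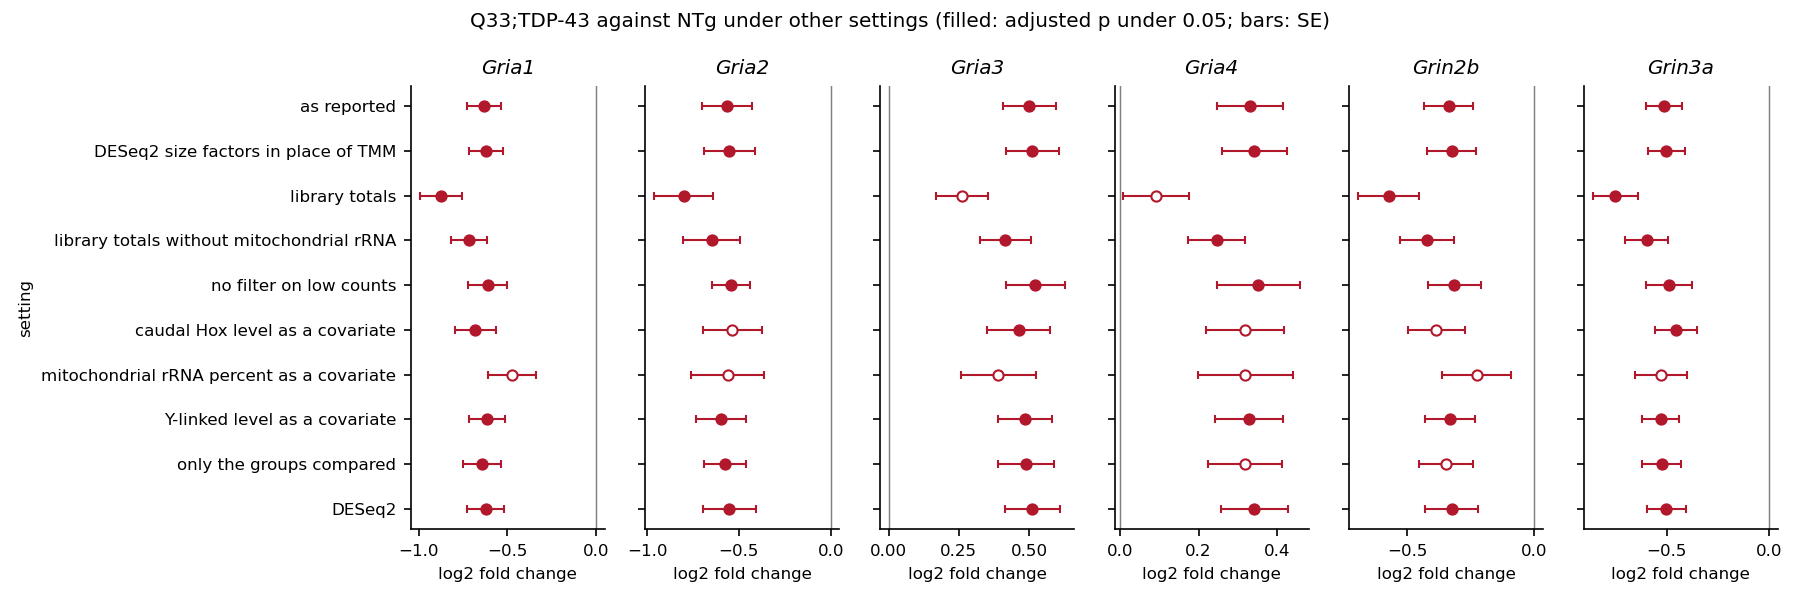
Log2 fold change (bars SE) of the 6 called genes in the Q33 double knock-in against NTg under the reported setting and 9 others, with filled points for an adjusted p under 0.05. All 6 keep their sign in every setting, and all points are open with the mitochondrial rRNA percent as a covariate, for example -0.47 for Gria1.

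With the mitochondrial ribosomal RNA percent as a covariate 0 of the 10 members were called in the Q33 double knock-in against NTg, and 28 of all 20635 genes were, against 2491 without it. The log2 fold changes were then -0.47 for Gria1, -0.56 for Gria2, 0.39 for Gria3, 0.32 for Gria4, -0.23 for Grin2b and -0.53 for Grin3a, with adjusted p from 0.13 for Grin3a to 0.51 for Grin2b. The Q33 double knock-in had the 3 highest percents, so covariate and genotype cannot be told apart well. With the caudal Hox level as a covariate Gria1, Gria3 and Grin3a were called, and Gria2 (adjusted p = 0.079), Gria4 (0.092) and Grin2b (0.071) were not. With only the libraries of these groups fitted, Gria4 (0.063) and Grin2b (0.068) were not called. Leaving out 1 library at a time, Gria1, Gria3 and Grin3a were called each time. Gria2 lost its call without NTg replicate 3 (0.063) or Q33 double knock-in replicate 1 or 2 (0.053 and 0.057), and Gria4 without NTg replicate 3 (0.069) or Q33 double knock-in replicate 1 (0.085). Grin2b lost it without NTg replicate 1 or 2 (0.10 and 0.081) or Q33 double knock-in replicate 1 or 2 (0.15 and 0.075).

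Auxiliary proteins that traffic AMPA receptors and set their gating were described next, from a list of 19 genes. In the Q33 double knock-in 2 were higher and 6 lower than in NTg, where 5.68% of all genes tested were higher and 6.39% lower. The list had a median log2 fold change of -0.13. With 1 library left out, 0 to 2 were higher and 4 to 7 lower, with 0 higher without NTg replicate 3 or Q33 double knock-in replicate 1. Shisa8, a member of a family of AMPA receptor auxiliary proteins, had 1.08 ± 0.328 CPM in the Q33 double knock-in and 6.02 ± 1.07 CPM in NTg (SD, n = 3 each), a log2 fold change of -2.48 (SE 0.35, edgeR adjusted p = 0.00038). Shisa7 had 9.33 ± 0.675 CPM in the Q33 double knock-in and 16.9 ± 0.676 CPM in NTg (log2 fold change -0.86, edgeR adjusted p = 0.00073). Cacng4, the gene of the auxiliary subunit TARP gamma-4 and also on the oligodendrocyte precursor list, had 15.2 ± 3.03 CPM in the Q33 double knock-in and 30.5 ± 6.54 CPM in NTg (log2 fold change -1.01, edgeR adjusted p = 0.0039). The 2 higher genes, named after their values were seen, were Cacng2, the gene of stargazin (0.52, SE 0.16, edgeR adjusted p = 0.044), and Abhd6, a hydrolase that limits AMPA receptor surface delivery (0.57, SE 0.14, 0.015). Shisa9, Gsg1l and Cnih3, also named after their values were seen, completed the lower genes at -0.57, -0.68 and -0.89.

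Of 10 kainate and delta receptor genes and their partners, 1 was higher and 4 lower (median -0.17). Of all genes tested in this comparison, 5.68% were higher and 6.39% lower. Grik5, a kainate receptor subunit gene, was at a log2 fold change of -0.49 (edgeR adjusted p = 0.0025), the auxiliary subunit gene Neto2 at -0.54 (0.015) and the subunit gene Grik4 at 0.34 (0.020). Grin3b, the other GluN3 gene, was on this list at 3.58 ± 1.42 CPM in the Q33 double knock-in and 2.52 ± 0.779 CPM in NTg and did not pass (0.52, SE 0.38, edgeR adjusted p = 0.39). Of 7 metabotropic receptor genes tested, 1 was higher and 2 lower (median -0.18). They were Grm4 at 0.43 (edgeR adjusted p = 0.013), Grm7 at -0.45 (0.0099) and Grm5, the partner of postsynaptic Homer proteins, at -0.61 (0.013). With 1 library left out, the kainate and delta list had 0 to 1 higher and 1 to 4 lower and the metabotropic list 0 to 1 higher and 1 to 3 lower. Both had 0 higher and 1 lower without NTg replicate 3. The higher call was also lost in both lists without Q33 double knock-in replicate 1, and without its replicate 2 both had 1 lower.

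In the Q33 double knock-in against NTg, 5.68% of all genes tested were higher and 6.39% lower. Postsynaptic scaffold and signalling genes had 3 of 31 higher and 7 lower (median -0.12). Leaving out 1 library gave 0 to 4 higher and 3 to 7 lower, with 0 and 3 without Q33 double knock-in replicate 1, 2 and 3 without NTg replicate 3, and 4 and 4 without NTg replicate 1, where the median was -0.04. Camk2a, the alpha subunit of the kinase that phosphorylates GluA1 in plasticity, had 37.8 ± 5.11 CPM in the Q33 double knock-in and 116 ± 17.1 CPM in NTg (SD, n = 3 each), a log2 fold change of -1.62 (SE 0.17, edgeR adjusted p = 5e-05). Nptx2, a secreted pentraxin that clusters AMPA receptors, was at -1.81 (edgeR adjusted p = 0.0008) and the scaffold gene Homer2 at -0.55 (0.0039). The 3 higher genes, named after their values were seen, were Camk2g (0.44, edgeR adjusted p = 0.0095), Nsf (0.38, 0.014) and Adarb1, which encodes the ADAR2 enzyme of the Q/R site (0.35, 0.032). Glutamate transport and co-agonist genes had 1 of 15 higher, Slc7a10, a transporter of glycine and D-serine (0.83, edgeR adjusted p = 0.0015), and 1 lower, the glutamate transporter gene Slc1a3, also on the astrocyte list (-0.96, 0.0020), with a median of 0.04. That median was -0.04 without Q33 double knock-in replicate 3 and -0.20 under library totals. Under library totals the auxiliary, kainate and delta, metabotropic, postsynaptic and transport lists had 0, 0, 0, 0 and 1 higher and 10, 6, 4, 13 and 4 lower. Over all 20635 genes, 206 were called higher and 3940 lower in that setting, with a median log2 fold change of -0.25. In the comparisons of the Q22 double knock-in, Q33, Q22 and TDP-43 with NTg, 0 genes of these 5 lists passed edgeR's test, and between 0 and 5 genes of a list had an unadjusted p under 0.05.

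In the Q33 against the Q22 double knock-in the auxiliary list had 2 of 19 higher and 7 lower, the kainate and delta list 0 higher and 3 of 10 lower, and the metabotropic list 1 of 7 higher and 3 lower. The postsynaptic list had 3 of 31 higher and 9 lower, and the transport list 1 of 15 higher and 1 lower. Of all genes tested in this comparison, 6.67% were higher and 6.17% lower. The higher call of the metabotropic list was lost whichever library of these groups was left out. In the same refits the auxiliary list had 0 to 2 higher and 4 to 7 lower, the kainate and delta list 1 to 5 lower and the metabotropic list 1 to 3 lower. The postsynaptic list had 0 to 4 higher and 4 to 10 lower, with 0 and 4 without Q33 double knock-in replicate 1 or Q22 double knock-in replicate 3. Grik1 (-0.58, edgeR adjusted p = 0.015), Grik3 (-0.33, 0.030), Grm2 (-1.26, 0.014) and the anchoring protein gene Akap5 (-0.80, 0.0032) were named by the rule here and not against NTg. Against TDP-43 the counts higher and lower were 2 and 4 in the auxiliary list, 0 and 1 in the kainate and delta list, 0 and 2 in the metabotropic list, 3 and 8 in the postsynaptic list and 2 and 1 in the transport list. Of all genes tested against TDP-43, 5.98% were higher and 6.66% lower. The counts against TDP-43 were not recomputed with a library left out. Whether the lists differ between comparisons was not tested, and the comparisons share the Q33 double knock-in libraries.

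Members also varied together across the 18 libraries. Gria3 and Gria4 had the highest correlation of log2 CPM, with r = 0.92 over 18 libraries and 0.72 after the genotype means were taken out. Gria2 and Grin3a had r = 0.89, and 0.81 within genotypes. Gria1 and Gria3 ran opposite to each other, with r = -0.90 and -0.71 within genotypes, and Gria2 and Gria4 likewise with r = -0.84 and -0.65. Gria1 and Gria2, both lower in the Q33 double knock-in, had r = 0.75 but 0.16 within genotypes. These are descriptions over libraries that share their scaling and their genotypes, without a test.

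The genes whose log2 CPM was most like that of a member, among 16260 genes averaging 1 CPM or more, were taken as the 3 with the highest r over the 18 libraries, of which 2 are named for some members. For Gria1 they were Agap2 (r = 0.98), Ahi1 (0.97) and the sodium-calcium exchanger gene Slc8a2 (0.97). Gria2 was most like Epb41l4b (0.98), the metabotropic receptor gene Grm5 (0.97) and Slc2a13 (0.97). Gria3 was most like Ppp4r4 (0.96), Dcun1d2 and Hecw1 (0.95 each), and Gria4 like the synaptic vesicle gene Sv2c (0.96), Adam23 (0.96) and the potassium channel gene Kcna1 (0.95). Grin3a was most like Met and Tmprss7 (0.90 each), Grin2d like Lmtk3 (0.92), Sez6 (0.89) and Safb (0.88), and Grin2c like the chaperone gene Hsp90aa1 (0.90), Cnih1 (0.87) and Paqr7 (0.86). Lower values led the lists of Grin1 (Coro6 at 0.87, Amph at 0.86 and Slc27a2 at 0.85), Grin2b (with Vezt and Ppfia2 at 0.86 each) and Grin2a (Rora at 0.79 and Bora at 0.78).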

How the data were processed

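Total RNA from 18 spinal cords was depleted of ribosomal RNA and sequenced as stranded read pairs, per the labels' protocols. The authors deposited whole-number counts per gene, made with featureCounts 1.6.1 in stranded paired mode on exons of GENCODE vM19, per the file headers. Trim Galore 0.4.1, TopHat2, DESeq2 and the mm10 build are named in the submitters' processing notes, without a role. The command in the file header left out chimeric pairs and set no option to count reads that match several genes or places, so near-identical sequence may be undercounted. Symbols were matched for 54409 of 54446 identifiers (99.932%). Replicate numbers follow accession order and only name a library. Every library is from its own animal, and 0 library pairs were identical.

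From the counts, edgeR 4.0.16 (limma 3.58.1, R 4.3.3) fitted all 18 libraries with a term for each genotype, with TMM scaling (factors 0.861 to 1.109), edgeR's low-count filter, the two-sided quasi-likelihood test and Benjamini-Hochberg adjustment over all 20635 genes within each of 11 comparisons, 3 contrasts of differences and 1 test over all genotypes, at 0.05. The test was checked on simulated data. SEs are derived from the test statistic, and 95% intervals use t on 12 residual degrees of freedom. Log2 CPM has a prior count of 2. Alternatives were DESeq2 1.42.0 (test and size factors), library totals with and without mitochondrial ribosomal RNA, no filter, only the groups compared, 3 covariates and leaving out each library. Intervals from the fit are for the difference between group means, and rest on a spread between animals estimated over all genotypes. They are not ranges of single animals. Without molecular identifiers a read is not an independent molecule. All 10 members are named. Of each list of receptor, postsynaptic and transport genes, the 3 called genes with the smallest adjusted p are named. This was done for comparisons with NTg and between the double knock-ins. Genes of the cell type marker lists were counted and not named by this rule. The members and the lists were chosen with earlier results of these data known, so they are no independent evidence.

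Sequences were read from GENCODE vM21 transcripts and placed on mm10 by its annotation. The coordinates of the 10 members are those of the count table. Some items are not reported here.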

Additional observations from a re-analysis of the deposited data

How the results depend on the processing

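No paired analysis was possible because the replicate numbers only follow the order of the accessions. The 6 called members kept their sign against NTg under all 15 alternatives that concern these groups. The 6 members called against NTg became 3 with the caudal Hox covariate and 0 with the mitochondrial rRNA covariate, and 3 to 6 with 1 library left out. Over all 20635 genes, the 2491 called became 531 and 28 with these covariates. Against the Q22 double knock-in 6 became 0 with the mitochondrial rRNA covariate and 2 to 7 with 1 library left out. With that covariate 73 of 20635 genes were called, against 2650 without it. Against TDP-43 4 became 1 with the Hox covariate, 0 with the mitochondrial rRNA covariate, 0 when only these groups were fitted and 2 to 5 with 1 library left out. Of all genes 2610 were called as reported, 320 and 3 with these covariates, and 256 of 19224 with only these groups fitted. Against Q33 0 became 2 under library totals, 1 without a filter, 2 with DESeq2 and 0 to 1 with 1 library left out. Genes called in all were 184 as reported, 396 under library totals, 1147 of 39219 without a filter and 1033 with DESeq2. For the tract length contrast 0 became 1 under library totals, 2 without a filter, 1 with only its groups and 4 with DESeq2. Here 71 of all genes were called as reported. In these settings 163, 838 of 39219, 168 of 20064 and 594 were called. Over all genotypes 3 became 5 without a filter, 1 with the Hox covariate, 0 with the mitochondrial rRNA covariate, 6 with DESeq2 and 0 to 5 with 1 library left out. That test called 859 genes as reported, and 3012 of 39219, 100, 4 and 2478 in the first 4 of these settings. The counts over all genes with 1 library left out are not given here. Without division by length the shares of the Q33 double knock-in minus those of NTg, in points, were -4.22 for Gria1, -12.7 for Gria2, 9.07 for Gria3, 7.90 for Gria4 and 1.26 for Grin2c. The cause of these changes was not tested. Each group had 3 animals, and sex, caudal Hox level and mitochondrial rRNA moved with genotype.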
